A study of Homo sapiens with 4 samples.

Results

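The 7 little-studied genes ANKRD22, LIPK, BICDL2, CAPN8, GUCY1A1, TMEM125 and C1orf210 were followed in MCF10AT cells because their reads were all but missing from one of the 2 groups of libraries. They were chosen from these same counts. Each had 0 or 1 read over both libraries labelled Bromo+/- and at least 40 reads over both control libraries, and genes of cell junctions, keratins and most proteases were set aside. These 7 are among the 58233 genes of the count table and among the 51 genes that met the count rule, 0.44% of those with at least 40 control reads. Genes outside the families set aside, such as MGMT and WNT7A, also met the rule but are not among the 7. The low level in libraries labelled Bromo+/- is therefore how the genes were picked. It is described here without a test.

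MCF10AT is a human breast epithelial line that carries oncogenic HRAS. RNA-seq was done on 4 libraries, 2 with the genotype label Bromo+/- and 2 labelled Non-target control, and both groups share the HRAS transformation and the growth medium with horse serum, hydrocortisone, insulin, cholera toxin and growth factor. The labels do not expand Bromo+/-. The series title speaks of EP300 knockdown, and its protocol text of lentiviral shRNA and puromycin, but the labels of these 4 libraries name no shRNA. Whether the libraries of a group came from separate cultures or from separate clones is not given, so p-values here reflect the spread between these particular samples, possibly technical in origin. The table columns share an unexplained number within each group, and each group may be 1 clone.

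The genes have unlike roles. GUCY1A1 encodes the alpha-1 subunit of soluble guanylate cyclase, which pairs with the beta-1 subunit from GUCY1B1, binds nitric oxide and makes the second messenger cGMP. CAPN8 encodes a calcium-dependent cysteine protease of the calpain family, best known from mucus cells of the stomach. LIPK belongs to the acid lipase family, and it lies in a gene cluster whose members LIPK, LIPM and LIPN are expressed in the outer living layers of the epidermis. BICDL2 encodes a coiled-coil protein related to the BICD adaptors, which link cargo to the microtubule motor dynein. ANKRD22 encodes a short protein made largely of ankyrin repeats, a fold that binds other proteins. TMEM125 and C1orf210 encode membrane proteins whose functions are little described.

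Because the 7 genes move together by choice, the sequence just ahead of their start sites was read for short motifs. RefSeq promoter windows (GRCh38.p14) were matched for 6 of the 7 genes, BICDL2 being the exception, and GUCY1A1 has a pair of start sites. Letters were searched on both strands in the 250 bases upstream of each start. The sequence TGANTCA, the form bound by AP-1 factors, was found for ANKRD22, CAPN8 and C1orf210, and 6.57% of all 35116 windows hold it. The sequence CACCTG, an E-box read by SNAI and ZEB repressors, was found for CAPN8 and C1orf210, and 17.5% of windows hold it. The upstream sequences of these 3 genes are shown for that reason, each on the minus strand and 5′ to 3′, with matches to TGANTCA and to CACCTG or its reverse complement in capitals. Bases that belong to an annotated exon are left out.
ANKRD22, chr10:88851845-88852094: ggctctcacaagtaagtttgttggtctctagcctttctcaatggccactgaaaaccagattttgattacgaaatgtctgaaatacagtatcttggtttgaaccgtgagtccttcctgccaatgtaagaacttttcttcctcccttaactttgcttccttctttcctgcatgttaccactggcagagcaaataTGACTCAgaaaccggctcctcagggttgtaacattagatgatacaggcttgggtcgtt
CAPN8, chr1:223665735-223665951: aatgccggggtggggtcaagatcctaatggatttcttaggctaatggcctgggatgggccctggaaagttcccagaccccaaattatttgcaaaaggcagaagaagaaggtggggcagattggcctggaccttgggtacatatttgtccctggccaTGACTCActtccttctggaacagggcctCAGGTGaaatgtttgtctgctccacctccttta
C1orf210, chr1:43285618-43285831: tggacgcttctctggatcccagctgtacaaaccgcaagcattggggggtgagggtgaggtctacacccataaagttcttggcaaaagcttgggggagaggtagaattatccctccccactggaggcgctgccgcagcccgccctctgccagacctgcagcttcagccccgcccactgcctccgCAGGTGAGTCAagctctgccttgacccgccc

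In the sequence of ANKRD22 the TGANTCA match begins 58 bases ahead of the start site, and in that of CAPN8 it begins 94 bases ahead. The CAPN8 E-box follows at 66 bases. In C1orf210 the E-box at 67 bases and the TGANTCA match at 63 bases share letters, so they form 1 unbroken run of capitals. C1orf210 has another CACCTG that begins at 37 bases, with its first letter the last one printed, in lower case, and the rest in the exon part left out. Among 9 motifs searched, AGGAAG (the core of ETS sites, 28.7% of windows) was found for ANKRD22, CAPN8 and GUCY1A1. GCCNNNGGC (AP-2, 19.8%) was found for GUCY1A1 and TMEM125, and GGGCGG (SP1, 42.6%) for GUCY1A1 and C1orf210. The percentages are per window, while GUCY1A1 was scored as a match if either of its windows held the motif. Matches to AACCNGTT (grainyhead factors, 1.49% of windows), CATTCC (TEAD, 11.9%), CACACCC (KLF, 6.63%) and TATAAA (the TATA box, 10.7%) were found for 0 of the 6 genes in these letters. CpG counts were mostly below the median of 11 per window: 0 for TMEM125, 1 each for CAPN8 and LIPK, 4 for ANKRD22 and 10 for C1orf210. GUCY1A1 had 2 at its upstream start and 20 at the other. The RefSeq start of LIPK lies 18.3 kb ahead of the first base counted for it, so its window is not next to the counted exons. A match describes letters only.

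GUCY1A1 (ENSG00000164116; chromosome 4, 155666711 to 155732349, plus strand; GRCh38, as are all coordinates from the count table) had 0 and 0 reads in libraries labelled Bromo+/- and 100 and 128 in control libraries. Both control libraries lie far above both Bromo+/- libraries. In CPM (reads relative to the scaled library size) the controls stood at 9.55 and 11.1, a mean of 10.3 ± 1.07 (SD, n = 2). Against a floor of 3 reads over the group, GUCY1A1 was at least 81.3-fold lower in libraries labelled Bromo+/-. In these bulk libraries, fewer cells with the transcript and less transcript per cell cannot be told apart.

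CAPN8 (ENSG00000203697; chromosome 1, 223538007 to 223665734, minus strand) had 0 and 0 reads in libraries labelled Bromo+/- and 123 and 111 in control libraries. It is the gene of the calpain protease introduced above, and its groups do not overlap. The controls stood at 11.7 and 9.60 CPM, with a mean of 10.7 ± 1.52 (SD, n = 2), and CAPN8 was at least 83.4-fold lower.

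LIPK (ENSG00000204021; chromosome 10, 88724544 to 88752786, plus strand) had 0 and 1 reads in libraries labelled Bromo+/- and 23 and 23 in control libraries. The control libraries stood at 2.20 and 1.99 CPM, with a mean of 2.09 ± 0.147 (SD, n = 2). LIPK is the thinnest of the 7 by read count, and its control-to-Bromo+/- ratio was 49.2, with a 95% exact interval of 8.40 to 1984. That interval, like the others here, covers counting error only.

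BICDL2 (ENSG00000162069; chromosome 16, 3027682 to 3036926, minus strand) had 0 and 0 reads in libraries labelled Bromo+/- and 117 and 137 in control libraries. The controls stood at 11.2 and 11.9 CPM, with a mean of 11.5 ± 0.475 (SD, n = 2), and BICDL2 was at least 90.5-fold lower. Its level is uncertain to the extent that reads of overlapping genes are split, because the strand setting of the counting is not given. BICDL2 shares 74 exon bases (1.58% of its own) with THOC6, a gene of the mRNA export complex THO, and 380 bases (8.10%) with ENSG00000205890, both on the plus strand. THOC6 had 463 reads in libraries labelled Bromo+/- and 421 in the controls, and ENSG00000205890 had 0 and 21.

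ANKRD22 (ENSG00000152766; chromosome 10, 88822132 to 88851818, minus strand) had 0 and 0 reads in libraries labelled Bromo+/- and 149 and 169 in control libraries. It has the most control reads of the 7 and, at 14.2 and 14.6 CPM, close values in the control libraries (mean 14.4 ± 0.270, SD, n = 2). ANKRD22 was at least 113-fold lower in libraries labelled Bromo+/-.

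TMEM125 (ENSG00000179178; chromosome 1, 43269994 to 43274002, plus strand) had 0 and 1 reads in libraries labelled Bromo+/- and 48 and 60 in control libraries. The controls stood at 4.58 and 5.19 CPM (mean 4.89 ± 0.427, SD, n = 2), and its control-to-Bromo+/- ratio was 116 (95% exact interval 20.3 to 4602). C1orf210 (ENSG00000253313; chromosome 1, 43281883 to 43285617, minus strand) lies only 7.88 kb further along the chromosome. It had 0 and 0 reads in libraries labelled Bromo+/- and 33 and 17 in control libraries, at 3.15 and 1.47 CPM (mean 2.31 ± 1.19, SD, n = 2). C1orf210 was at least 17.8-fold lower, the smallest of the 5 bounds, and it has the widest relative spread between the control libraries.

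**Figure D1:**
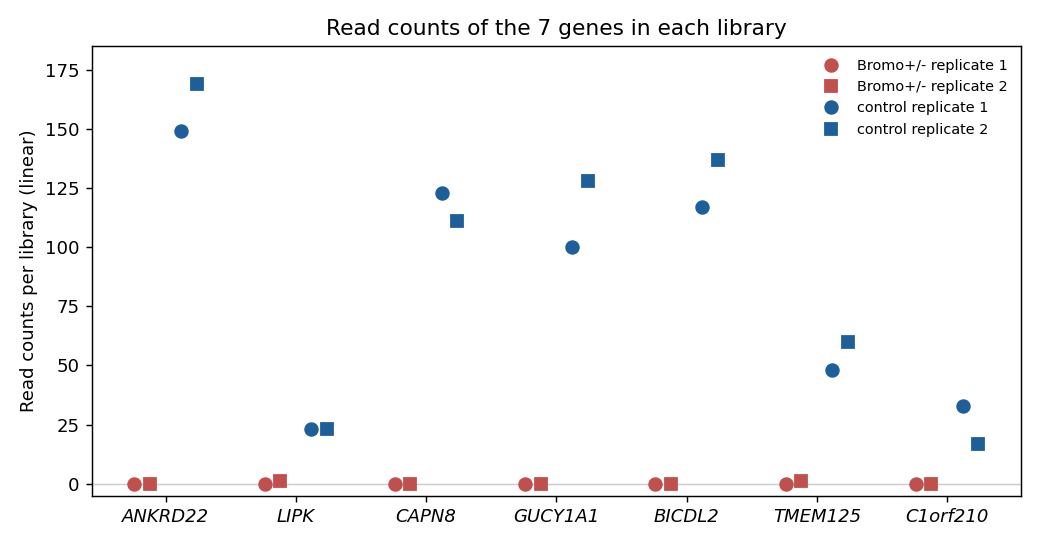
Read counts of the 7 genes in each of the 4 libraries, with gene on the x axis and counts per library on a linear y axis; circles are replicate 1 and squares replicate 2. Every Bromo+/- point is at 0 or 1, and the control points run from 17 (C1orf210) to 169 (ANKRD22).

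Summed over the 7 genes, libraries labelled Bromo+/- held 2 reads and the controls 1238. For 5 of the 7 genes the Bromo+/- count was 0. All 7 passed the filter on low counts, which they could do only through the control group. Agreement between the control libraries is a measure the choice of genes did not use, since it summed them. Control replicate 2 holds 52.5% of the scaled size of the pair, and its share of reads was 53.1% for ANKRD22 (95% exact interval 47.5 to 58.7), 53.9% for BICDL2 (47.6 to 60.2), 47.4% for CAPN8 (40.9 to 54.0) and 56.1% for GUCY1A1 (49.4 to 62.7). The shares for TMEM125 (55.6%, 45.7 to 65.1) and LIPK (50.0%, 34.9 to 65.1) also have intervals that hold 52.5%. C1orf210 is the exception, with 34.0% of its reads in control replicate 2 and an interval of 21.2 to 48.8%.

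Levels of different genes were compared per kilobase of exon in the count table. ANKRD22 stood highest, at a control level of 8.32 ± 0.156 CPM per kb (SD, n = 2), above 61.2% of all genes tested. The next was BICDL2 at 2.45 ± 0.101 CPM per kb, and the control libraries of these neighbours in the order do not overlap. Below BICDL2 the order was TMEM125 (2.30 ± 0.201 CPM per kb), CAPN8 (2.06 ± 0.293), GUCY1A1 (1.79 ± 0.186), LIPK (1.70 ± 0.120) and C1orf210 (1.52 ± 0.785). Each of these 6 overlaps the next in its control libraries. The 6 lie above 24.6% (C1orf210) to 32.7% (BICDL2) of the genes tested, so they are weakly expressed in the control cells too.

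Of 11592 genes with at least 40 control reads, 51 (0.44%) had 0 or 1 read in libraries labelled Bromo+/-, and 30 of these had 0. The mirrored rule, at least 40 reads in Bromo+/- and 0 or 1 in control, was met by 22 of 11802 genes (0.186%). Near the lower edge, LIPK (46 control reads) and C1orf210 (50) are the closest of the 7. Just inside it lay GABRP with 44 control reads and 5 genes tied at 43, among them the skin protease inhibitor SPINK5. Just outside lay NKX1-2 with 39 and TRAF3IP3 with 38 control reads, each with 1 Bromo+/- read. Past the other edge, FUT3 (2 against 323 reads) and LINC00052 (2 against 306) were left out only for a second Bromo+/- read.

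**Figure D2:**
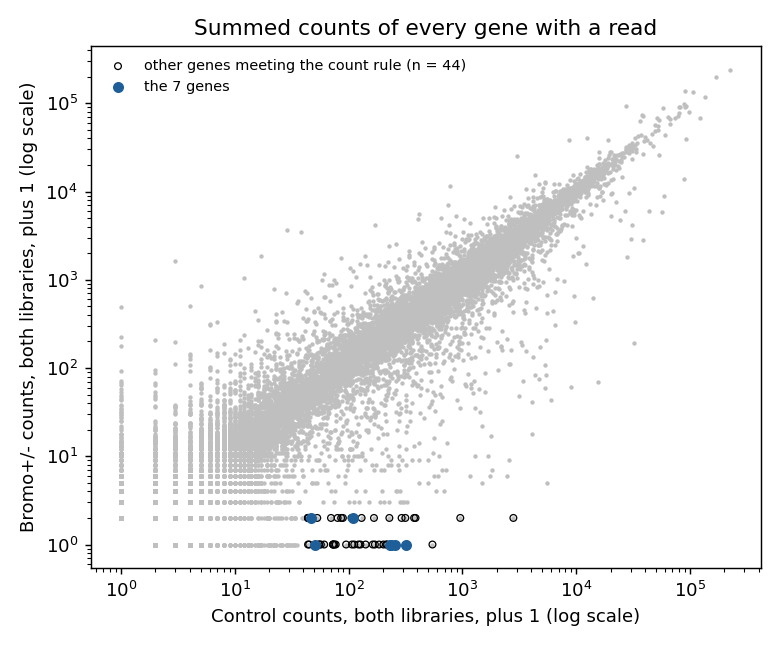
Summed reads of each gene in both control libraries (x axis, plus 1, log scale) against both Bromo+/- libraries (y axis, plus 1, log scale). The 7 genes (filled) lie with the other 44 genes that meet the count rule (open circles) on the 2 lowest rows, at 46 to 318 control reads.

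The genes most like each of the 7 were found by Euclidean distance over log2 CPM (prior count 2) of the 4 libraries, in units of log2. SPRR2A, a precursor of the cornified envelope, was nearest to ANKRD22 (distance 0.114), with 0 and 0 reads against 143 and 181, followed by the serine protease gene PRSS22 (0.565). TMPRSS13, a membrane serine protease, was nearest to GUCY1A1 (0.140), to CAPN8 (0.287) and to BICDL2 (0.315), with 0 and 0 against 101 and 116 reads. The next were the mucin gene MUC16 for GUCY1A1 (0.247) and CEACAM6, a cell adhesion gene, for CAPN8 (0.372) and BICDL2 (0.469). LIPK was nearest to ADGRL3 and SLC27A6, which had the same reads in all 4 libraries (0, 1, 22 and 21; distance 0.134). TMEM125 was nearest to ENSG00000253154 (0.593) and the mucosal keratin gene KRT13 (0.597), and C1orf210 to GABRP (0.480) and NT5DC4 (0.668). With 4 libraries in 2 groups, such a distance mostly measures the control level of genes that lack Bromo+/- reads.

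The whole table gives the background for what follows. Totals were 10835237 to 11975396 reads per library, and 3 reads equal 0.245 to 0.287 CPM. Of 13179 genes tested, 7055 (53.5%) differed at an adjusted p of 0.05 (edgeR quasi-likelihood test, Benjamini-Hochberg), 26.4% higher and 27.1% lower in libraries labelled Bromo+/-. EP300, the gene of the series title, had 1485 and 1426 reads against 1113 and 1281 and so was not lower under the label Bromo+/- (log2 fold change 0.19; adjusted p = 0.00701, edgeR, but 0.162 without control replicate 1 and 0.0639 under DESeq2). Counts per gene do not show whether a single exon or allele is altered, and every direction given here rests on the labels. With library size alone as the scale, 4433 were higher and 2794 lower in place of 3485 and 3570. All 10 mammary epithelial markers were lower, with KRT14 at 0 reads against 162 and TP63 at 8 against 495, and their summed level was 2138 to 2189 CPM against 10960 to 11260. The 3 tested leukocyte markers of 10 were also lower (summed 6.56 to 7.74 against 25.5 to 25.6 CPM), with CD3E and HLA-DRA at 0 in every library. Of 8 endothelial markers 4 were tested, 2 higher and 1 lower (19.3 to 23.6 against 25.3 to 27.7 CPM), with TIE1 and VWF at 0. Fibroblast markers were summed at 139 to 141 against 41.3 to 43.4 CPM (3 higher and 1 lower of 4 tested, of 8 listed; LUM at 0). Most of the Bromo+/- sum came from DCN (mean 79.1 against 0.728 CPM) and POSTN (36.2 against 0.178), while FAP fell (16.8 against 38.3). Smooth muscle and pericyte markers were summed at 128 to 135 against 89.8 to 93.3 CPM (3 higher and 1 lower of 5 tested, of 9 listed; CNN1 at 0). Most of that sum was MCAM (mean 107 against 56.8 CPM), while NOTCH3 fell (10.1 against 27.4). The 4 platelet markers were summed at 1.06 CPM or less in every library. The part of these markers in the results on the 7 genes was not tested.

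Genes beside the 7 moved in both directions. Within 500 kb of the 7 genes, which lie at 5 places in the genome, 212 other genes are listed and 64 were tested. Of those, 19 (29.7%) were higher, 21 (32.8%) lower and 24 did not pass, with a median log2 fold change of 0.02, beside 0.01 over all genes tested. Within 250 kb, 34 neighbours were tested, 9 higher (26.5%) and 17 lower (50.0%), beside 26.4% and 27.1% over the whole table, and within 1000 kb 39 (30.7%) were higher and 32 (25.2%) lower of 127. Of 53 neighbours with at least 40 control reads, 2 had 0 or 1 Bromo+/- reads, PRSS22 and ENSG00000260244, and the rest had 2 or more. Over the whole table the share was smaller, 0.44% (51 of 11592 genes, the 7 included). The difference was not tested.

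GUCY1B1, the partner subunit gene of GUCY1A1, lies 26.6 kb beyond it on the same strand. It had 17 and 17 reads in libraries labelled Bromo+/- and 66 and 78 in control libraries, at 1.45 ± 0.0850 and 6.52 ± 0.312 CPM (SD, n = 2 each). GUCY1B1 fell by 2.17 on the log2 scale (SE 0.26, adjusted p = 1.37e-14, edgeR), so reads for the beta-1 subunit were fewer but still present. Per kilobase of exon the control levels of the pair were alike, 1.75 ± 0.0837 CPM for GUCY1B1 and 1.79 ± 0.186 for GUCY1A1, and GUCY1B1 stood at 0.388 CPM per kb in libraries labelled Bromo+/-. ENSG00000260244, a transcript that begins 2.1 kb past the end of GUCY1A1 on the same strand, had 0 and 0 reads against 20 and 34, at least 19.2-fold lower. ENSG00000260244 itself meets the count rule, so it passed the filter only through the control group. Farther out, CTSO, which encodes a cathepsin, rose from 9 and 16 reads to 71 and 39 (log2 fold change 2.03, SE 0.30, adjusted p = 6.19e-10, edgeR). MAP9, a microtubule protein gene, rose by a log2 fold change of 0.38, a call that was lost under DESeq2's Wald test (adjusted p = 0.0839), without Bromo+/- replicate 2 (adjusted p = 0.195, edgeR) and without control replicate 1 (adjusted p = 0.11, edgeR).

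CAPN2, the large subunit of one of the widely expressed calpains, is the nearest tested neighbour of CAPN8, 35.9 kb away. It stood at 742 ± 14.2 CPM with Bromo+/- and 1007 ± 8.77 in control, and its log2 fold change was -0.44 (SE 0.05; adjusted p = 4.54e-15 by edgeR). CAPN2 thus kept most of its level next to a calpain gene with 0 reads. TP53BP2, an apoptosis regulator, fell by 0.40 and TLR5, the flagellin receptor, by 1.98 on the log2 scale (adjusted p = 5.86e-06 and 1.78e-04, edgeR), TLR5 on 9 reads against 34. Of 6 tested neighbours of CAPN8, 0 were higher and 3 lower (50.0%), beside 26.4% and 27.1% over all genes tested. With 6 genes, these shares are not read as a trait of the place.

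LIPK and ANKRD22 lie 69.3 kb apart on opposite strands, with other acid lipase genes around them. LIPM, the skin lipase gene 1.6 kb from ANKRD22, had 0 and 0 reads against 5 and 6 and was too low to be tested, at least 3.92-fold lower. LIPN, LIPF and LIPJ had 0 reads in every library. LIPA, the lysosomal lipase gene 362 kb away, stood at 71.5 ± 5.05 and 64.6 ± 1.43 CPM and did not pass (log2 fold change 0.14, adjusted p = 0.08, edgeR). It passed with scaling by library size alone (adjusted p = 0.00483), with the replicate number as a block (0.0473) and without Bromo+/- replicate 1 (0.0129), all with edgeR. Neighbours of another kind were higher. STAMBPL1, a deubiquitinase gene, stood at 43.1 ± 0.770 CPM and at 33.3 ± 0.288 in control, a rise of 0.37 (SE 0.09, adjusted p = 7.5e-05, edgeR) on the log2 scale, and ACTA2, smooth muscle actin, rose from 34 and 44 reads to 106 and 98 (log2 fold change 1.29, SE 0.20, adjusted p = 1.51e-09). FAS, a death receptor gene, rose by 0.21, a call lost under DESeq2 (Wald test, adjusted p = 0.154) and without Bromo+/- replicate 2 or either control library (adjusted p of 0.102 to 0.124, edgeR). IFIT2, an interferon-induced gene, fell by 1.35 on the log2 scale.

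Around BICDL2, the most crowded of the 5 places, 33 neighbours were tested, 11 higher (33.3%) and 9 lower (27.3%). Over all genes tested the shares were 26.4% and 27.1%. THOC6, whose exons overlap BICDL2, stood at 19.6 ± 0.466 and 19.2 ± 2.57 CPM and did not pass (log2 fold change 0.04, adjusted p = 0.792, edgeR; -0.10 without control replicate 2). TNFRSF12A, the receptor of the cytokine TWEAK, 5.3 kb away, fell by 0.39 on the log2 scale (adjusted p = 4.23e-10), and the cell cycle kinase gene PKMYT1 by 0.69. Stronger falls were seen on both sides of BICDL2. IL32, a cytokine gene 28.4 kb away, had 3 and 5 reads against 114 and 123 (log2 fold change -4.94, SE 0.31, adjusted p = 1.04e-38, edgeR). AC004233.2, 25.7 kb away on the other side, had 4 and 2 against 100 and 90 (-5.02, SE 0.35, adjusted p = 1.83e-33), and ENSG00000272079 fell by 2.75 on the log2 scale (-4.22 without Bromo+/- replicate 1 and -2.09 without replicate 2). CLDN9, a tight-junction claudin gene, had 0 and 1 against 7 and 11 reads and was too low to be tested, and it had 19.2 times more in control after scaling (95% exact interval 3.04 to 802). PRSS22, 170 kb away, had 1 and 0 reads against 157 and 157, a ratio of 336 (95% exact interval 59.8 to 13300), and itself meets the count rule. It was singled out after its values were seen, as a neighbour that meets the rule. Among the 11 higher neighbours, FLYWCH1 (76.5 kb away) and FLYWCH2 (128 kb) rose by 1.01 and 1.02 on the log2 scale. ZG16B (188 kb) rose by 1.53 (adjusted p of 1.76e-20, 3.81e-11 and 1.6e-07, edgeR). FLYWCH1, FLYWCH2 and ZG16B were named after their values were seen, and their calls were not compared under the alternatives. HCFC1R1, 3.4 kb away, rose by 0.47, a call lost with the DESeq2 Wald test (adjusted p = 0.149), without Bromo+/- replicate 1 (0.0634, edgeR) and without control replicate 1 (0.0838, edgeR).

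TMEM125 and C1orf210 lie inside a stretch where 14 neighbours were tested, 3 higher (21.4%) and 6 lower (42.9%). Over all genes tested the shares were 26.4% and 27.1%. EBNA1BP2, a ribosome biogenesis gene, overlaps the first part of TMEM125 on the opposite strand, with no shared exon base. It had 3178 and 2904 reads against 3047 and 3154, and stood at 258 ± 1.27 and 282 ± 12.9 CPM (log2 fold change -0.13, adjusted p = 0.034, edgeR). This call was lost with library size alone (0.509), without control replicate 1 (0.416) or 2 (0.0575), and with the DESeq2 Wald test (0.109), values that are all adjusted p. The mitotic gene CDC20 fell by 0.27, the mediator subunit gene MED8 by 0.32 and the fatty acid elongase gene ELOVL1 by 0.67 on the log2 scale. PTPRF, a receptor phosphatase of cell contacts 240 kb away, stood at 238 ± 1.20 against 612 ± 12.3 CPM (log2 fold change -1.36, SE 0.05, adjusted p = 4.59e-72, edgeR), and the glucose transporter gene SLC2A1 at 147 ± 13.2 against 313 ± 9.48 CPM (-1.09). None of these named neighbours, all of them lower, lost its reads as TMEM125 and C1orf210 did. Among the 3 higher neighbours, ERMAP, 425 kb away, rose by 1.05 on the log2 scale (adjusted p = 9.65e-09, edgeR). ERMAP was named after its values were seen, and its call was not compared under the alternatives.

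**Figure D3:**
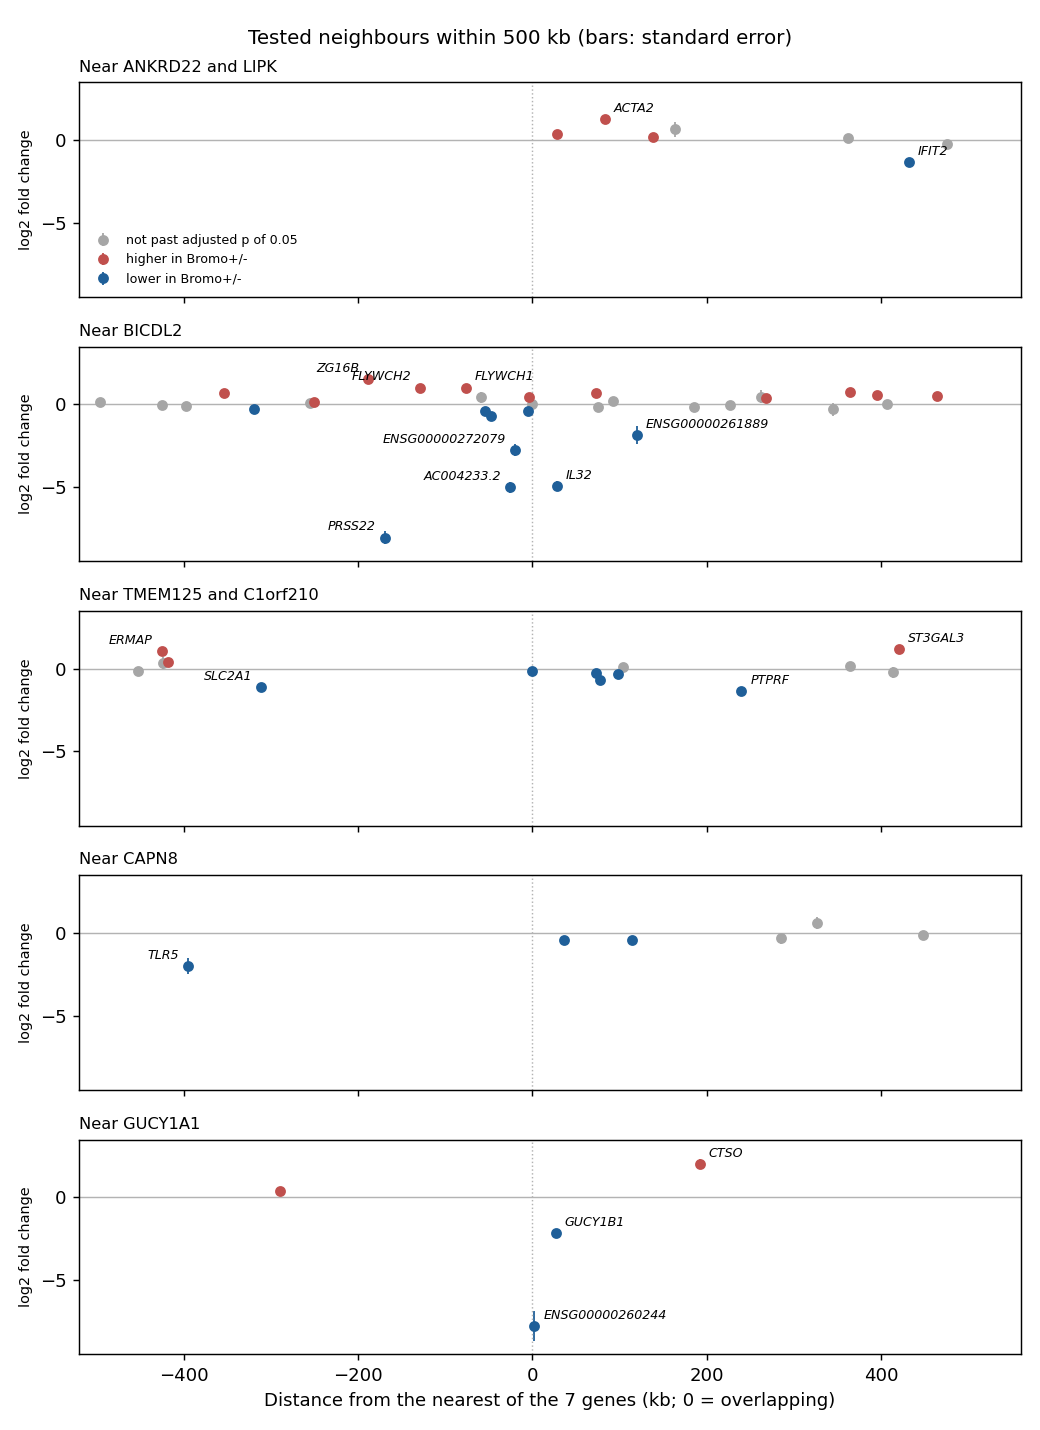
Tested genes within 500 kb of the 7 genes, 1 panel per place in the genome: distance from the nearest of the 7 in kb (x axis) against log2 fold change of Bromo+/- over control (y axis), with bars for the standard error. Most points lie near 0, with PRSS22, AC004233.2 and IL32 near BICDL2 and ENSG00000260244 near GUCY1A1 lowest; fitted values of genes with 0 or 1 reads in a group depend on the prior count.

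Other genes of each pathway were taken from lists that leave the 7 out. In cGMP signalling, 13 of 29 listed genes were tested, 5 higher (38.5%), 5 lower (38.5%) and 3 not passing, with a median log2 fold change of -0.03, beside 0.01 over all genes tested. Among all genes tested, 26.4% were higher and 27.1% lower. GUCY1A2, the other alpha subunit, had 0 reads in every library, so no alpha subunit had a read in libraries labelled Bromo+/-. Genes on the degrading side moved in both directions. PDE9A, a cGMP phosphodiesterase, rose from 10 and 16 reads to 188 and 156 (log2 fold change 3.62, SE 0.22, adjusted p = 2.63e-39, edgeR), while PDE5A, another, fell from 54 and 81 to 30 and 26 (-1.36, SE 0.23, adjusted p = 6.83e-08). NPR3, the clearance receptor of natriuretic peptides, had 24 and 20 reads against 1 and 0, a ratio of Bromo+/- to control of 41.2 (95% exact interval 7.01 to 1662). VASP, an actin regulator phosphorylated by cGMP-dependent kinase, fell to 171 ± 11.3 from 296 ± 7.98 CPM (-0.79, adjusted p = 1.01e-33). The exporter gene ABCC5 rose by 0.63. The kinase genes PRKG1 (1 read against 7) and PRKG2 (2 against 3) and the nitric oxide synthase gene NOS3 (2 against 5) were too low to be tested. Without control replicate 2 the number of lower genes was 3: PDE2A, another phosphodiesterase gene, missed the threshold (adjusted p = 0.0645, edgeR) and the cGMP-gated channel gene CNGA1 did not pass the filter.

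Of 16 other calpain genes 8 were tested, 3 higher (37.5%), 4 lower (50.0%) and CAPN10 not passing, with a median log2 fold change of -0.16. Beside these stand 26.4% higher and 27.1% lower over all genes tested. CAPN1, the large subunit of the other widely expressed calpain, fell to 230 ± 20.9 from 430 ± 0.296 CPM (-0.90, SE 0.05, adjusted p = 9.58e-42, edgeR), and CAST, the calpain inhibitor calpastatin, fell to 255 ± 11.6 from 402 ± 1.52 CPM (-0.66, adjusted p = 2.13e-27). CAPNS1, the small subunit they share, stood at 549 ± 26.9 and 506 ± 12.7 CPM (0.12, adjusted p = 0.0379), a call lost with the DESeq2 Wald test, without the filter and without Bromo+/- replicate 1 or either control library (adjusted p of 0.0878 to 0.384). CAPN5, a calpain that works without that subunit, went the other way, from 11 and 12 reads to 100 and 68 (2.76, SE 0.27, adjusted p = 2.52e-19). CAPN9, the calpain that partners CAPN8 in the stomach, had 0 reads in every library.

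Of 19 other lipase genes 8 were tested, 2 higher (25.0%), 5 lower (62.5%) and LIPA not passing, with a median log2 fold change of -1.11. PNLIPRP3, a relative of pancreatic lipase, had 2 and 1 reads against 323 and 368, 246 times more in control after scaling (95% exact interval 83.9 to 1197). The endothelial lipase gene LIPG fell to 21.7 ± 0.885 from 115 ± 8.23 CPM (-2.40, SE 0.08, adjusted p = 1.13e-82, edgeR). The monoglyceride lipase gene MGLL fell by 1.09 and LIPH, a phosphatidic acid phospholipase gene, by 1.60 on the log2 scale. The higher pair were LPL (22 reads against 5) and PNPLA2, and both calls were lost under DESeq2 (adjusted p = 0.125 and 0.124, Wald test). LPL, on few reads, lost its call without control replicate 1 (adjusted p = 0.16, edgeR), PNPLA2 without control replicate 2 (0.131), and both without Bromo+/- replicate 1 (0.052 and 0.229). Genes of the skin barrier, chiefly of its lipids, the setting in which LIPK is known, were mostly lower. Of 24 listed and 17 tested, 2 were higher (11.8%) and 12 lower (70.6%), with a median of -0.46. Over all genes tested, 26.4% were higher and 27.1% lower. The list is not of lipid genes alone and holds proteases such as ST14. ST14, the protease matriptase, fell by 2.51 (adjusted p = 4.67e-118), and the lipid transporter gene ABCA12 fell from 908 and 979 reads to 194 and 229 (-2.25, adjusted p = 4.42e-70). SULT2B1, the cholesterol sulfotransferase gene, had 0 and 0 reads against 63 and 63, at least 44.9-fold lower. SULT2B1 itself meets the count rule, so it passed the filter only through the control group. ELOVL1 is counted here as well as beside TMEM125.

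Of 44 listed BICD adaptors, other dynein adaptors and dynein or dynactin subunits 41 were tested, 9 higher (22.0%), 12 lower (29.3%) and 20 not passing, with a median log2 fold change of -0.05. These shares stand beside 26.4% higher and 27.1% lower over all genes tested. BICDL1, the closest paralogue of BICDL2, had 27 and 29 reads against 55 and 89 (-1.45, SE 0.23, adjusted p = 6.13e-09, edgeR), lower but present. BICD2 fell by 0.29 (adjusted p = 5.75e-06), and BICD1 did not pass (0.02, adjusted p = 0.864). The adaptor genes HOOK1 (6.20 ± 0.00422 against 30.6 ± 0.672 CPM; -2.30, adjusted p = 9.38e-45) and HOOK2 (-1.47) fell further. RAB11FIP3, an adaptor of recycling endosomes, and SPDL1, one of kinetochores, rose by a log2 fold change of 0.96 and 0.56.

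For the genes without a described pathway, families by name serve as the reference, with no claim of shared function. Their shares are read beside 26.4% higher and 27.1% lower over all genes tested. Of 34 tested ANKRD genes 10 were higher (29.4%) and 7 lower (20.6%), median 0.15. ANKRD1, a stretch-induced gene, had 293 and 213 reads against 1 and 2, a ratio of Bromo+/- to control of 158 (95% exact interval 53.7 to 768), opposite in direction to ANKRD22. ANKRD33B rose by 1.73 and ANKRD44 by 2.17, and ANKRD13A fell by 0.56 on the log2 scale. Without control replicate 1 the number of higher ANKRD genes was 6. Of 150 tested TMEM genes 46 were higher (30.7%) and 31 lower (20.7%), median 0.04, with TMEM30B at 15 and 9 reads against 319 and 340 (-4.86, adjusted p = 2.05e-69, edgeR), TMEM40 at -3.64, TMEM154 at -1.60 and TMEM141 at -1.32. Of 114 tested genes named by chromosome and open reading frame 21 were higher (18.4%) and 26 lower (22.8%), median -0.01. C1orf116 fell to 1.70 ± 0.220 from 187 ± 12.5 CPM (-6.77, SE 0.12, adjusted p = 1.35e-142), C6orf132 fell by 2.32 and C16orf74 by 1.69 on the log2 scale, and C10orf90 rose by 2.78. Scaling by library size alone moved the split of all 3 name families. It gave 13 higher and 5 lower ANKRD genes, 55 and 29 TMEM genes, and 32 and 21 open reading frame genes. The last split is in the other direction from the one given first. Other sets moved as well, and the neighbours within 500 kb also changed direction, from 19 higher and 21 lower to 22 and 20.

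**Figure D4:**
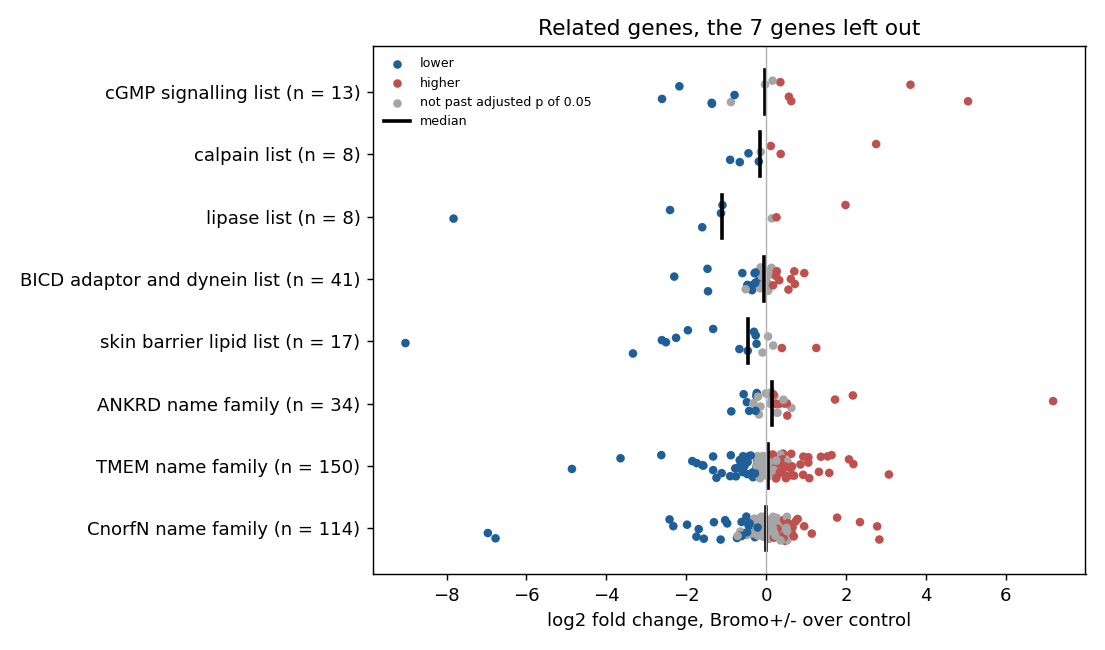
Log2 fold change of Bromo+/- over control (x axis) for each tested gene of the 5 lists and the 3 name families (y axis), the 7 genes left out, with a bar at each median. The lipase and skin barrier lipid medians, -1.11 and -0.46, lie farthest below 0.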

How the data were processed

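RNA was sequenced in 4 libraries with a stranded mRNA kit, per the labels. The values deposited by the authors are raw counts for each Ensembl gene, made with STAR, GRCh38 and featureCounts 1.5.2, per the submitters' processing notes. Annotation, strand setting and handling of multiply mapped reads: not given in the sources used here. Columns named WT were matched to the Non-target control by name. Of 58233 identifiers, 338 had no gene name.

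Groups were compared with edgeR 4.0.16 under R 4.3.3 (filterByExpr, TMM scaling, robust quasi-likelihood test, 2 residual degrees of freedom, Benjamini-Hochberg adjustment over all 13179 genes tested). DESeq2 1.42.0 served as an alternative. CPM uses scaled library sizes. For a gene with 0 reads in a group, the fold is a bound against 3 reads over the group; with 1 to 3 reads, it is a ratio with a 95% exact binomial interval. Exon lengths for CPM per kb are those of the deposited count table. The test was checked on simulated data. Within groups the chi-square statistic per degree of freedom was 2.44 (Bromo+/-) and 1.56 (control), more than sampling noise, and all 4 libraries were kept as separate samples.

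The 7 genes, lists and tests were chosen with earlier results of these data known. Besides the 7, genes were named by rule: nearest neighbours and called neighbours (at most 6 per place, nearest first), up to 4 genes per list with the smallest adjusted p, close paralogues or partners, the 2 nearest genes by distance, and genes at the edges of the count rule. Genes named outside it were chosen after their values were seen. They are neighbours or list members of related function, higher neighbours, or genes that answer a small count. Promoter windows came from RefSeq (GRCh38.p14).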

Additional observations from a re-analysis of the deposited data

How the results depend on the processing

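Of 79 named genes tested, 67 kept their call and direction wherever they were tested under the alternatives to the scaling, filter, test, block and libraries. Some of the 79 meet the count rule themselves, and others were named for a small adjusted p. The 67 therefore partly reflect how the genes were chosen. Of 204 recomputed counts, 186 stayed within 1.5 times. The DESeq2 Wald test gave 2292 higher genes over the whole table (3485 with edgeR), 11 higher neighbours (19), 0 higher lipase genes (2), 6 higher and 4 lower ANKRD genes (10 and 7), 29 higher TMEM genes (46), and 13 higher and 17 lower open reading frame genes (21 and 26). Library size alone gave 32 higher open reading frame genes and shifted the median log2 fold change of all genes by 0.08. A filter at a mean of 10 reads left 1 higher lipase gene. A window of 250 kb held 9 higher and 17 lower neighbours of 34 tested, and one of 1000 kb held 39 higher and 32 lower of 127 tested, as other genes enter; the share of lower neighbours was 50.0% at 250 kb, 32.8% at 500 kb and 25.2% at 1000 kb. Leaving out each library in turn gave 3 to 5 lower cGMP genes, 1 to 2 higher lipase genes and 6 to 11 higher ANKRD genes. It moved the log2 fold change of BICD1 between -0.034 and 0.074 and of THOC6 between -0.10 and 0.17, neither past the threshold in any of these fits. The median control level of the 7 genes was 10.3 CPM, 10.0 with library size alone and 9.55 to 9.60 from single control libraries. The replicate number as a block gave 3570 higher and 3701 lower genes over the whole table and 20 higher and 21 lower neighbours; no label pairs the libraries, and the correlation of replicate differences between the groups was 0.05. Except where a filter or window changes which genes enter, or fewer libraries do, the cause was not tested. With 1 Bromo+/- read each, ratios for LIPK and TMEM125 are bounded only loosely.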
